A study of Mus musculus with 2 samples.

Results

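The 8 genes described here are Aqp1, Aqp2, Aqp3, Hsd11b2, Avpr2, Scnn1g, Fxyd4 and Apela, water channels and collecting duct principal cell genes taken by name and not by a measured value, out of 15169 genes in the deposited expression table. All 8 were present in the table. Droplet single-cell RNA sequencing had been done on 1 IRI library and 1 CTRL library, each from kidney of wild-type C57BL/6 mice of 9 weeks. The IRI kidney had undergone unilateral ischaemia-reperfusion injury, in which blood flow is stopped and restored, with removal of the opposite kidney. The CTRL kidney was from a normal control, with no nephrectomy given in the labels, so ischaemia and loss of the opposite kidney cannot be told apart. The labels give neither the time after injury nor the number of animals per library.

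The IRI library held 5170 cells with 16816996 raw UMIs (median 1888.5 UMIs per cell), and the CTRL library held 6589 cells with 24169073 raw UMIs (median 2344). A UMI is a tag that marks 1 captured RNA molecule. The cells carried 18 deposited type names over 29 deposited clusters, and 55 cell barcodes occurred in both libraries. Levels are mean depth-corrected counts per cell as the authors deposited them. Ratios are log2 ratios of IRI over CTRL after 0.05 was added to each mean. With 1 library per group no test between animals exists, so values describe these libraries, and all 95% intervals are exact and cover counting error only.

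Principal cells are the cells of the connecting tubule and collecting duct that return water and sodium to the body. Vasopressin binds the receptor encoded by Avpr2, raises cyclic AMP and drives the channel Aqp2 into the apical membrane, and water leaves the cell through Aqp3 on the basolateral side. Aldosterone raises sodium entry through the epithelial sodium channel, of which Scnn1g encodes the gamma subunit, and Hsd11b2 inactivates glucocorticoids so that aldosterone has access to its receptor. Fxyd4 is a small membrane protein that modulates the sodium pump, and Apela is a peptide ligand of the apelin receptor. Aqp1 is the constitutive water channel of proximal tubule, thin descending limb and descending vasa recta, and not of principal cells.

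RefSeq promoters of build GRCm38.p6 were available for 7 of the 8 genes, matched by symbol, and none for Hsd11b2. The 250 bases before the annotated start are printed for Aqp2, Fxyd4 and Apela, because the levels compared within cluster 9 are mainly those of Aqp2 and Fxyd4, and Apela lay in the same clusters. Coordinates are chr15:99578806-99579055, plus strand for Aqp2, chr6:117937336-117937585, minus strand for Fxyd4 and chr8:65037337-65037586, minus strand for Apela. Capitals mark every match, on either strand, to 5 searched letter patterns. These were the ETS core GGAAG, the GATA pattern AGATAA, the cyclic AMP response core TGACG, the HNF1 pattern GTTAAT and the grainyhead pattern AACNGGTT.
Aqp2: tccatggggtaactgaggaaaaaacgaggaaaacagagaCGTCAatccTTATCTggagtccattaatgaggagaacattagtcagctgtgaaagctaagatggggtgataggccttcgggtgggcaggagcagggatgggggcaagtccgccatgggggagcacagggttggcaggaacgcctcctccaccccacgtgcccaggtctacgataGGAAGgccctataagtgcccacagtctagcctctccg
Fxyd4: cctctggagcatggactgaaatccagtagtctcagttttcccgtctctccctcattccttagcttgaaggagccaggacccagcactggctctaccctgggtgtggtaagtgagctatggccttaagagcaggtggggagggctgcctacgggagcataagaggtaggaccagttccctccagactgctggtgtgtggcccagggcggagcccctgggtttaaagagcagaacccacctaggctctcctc
Apela: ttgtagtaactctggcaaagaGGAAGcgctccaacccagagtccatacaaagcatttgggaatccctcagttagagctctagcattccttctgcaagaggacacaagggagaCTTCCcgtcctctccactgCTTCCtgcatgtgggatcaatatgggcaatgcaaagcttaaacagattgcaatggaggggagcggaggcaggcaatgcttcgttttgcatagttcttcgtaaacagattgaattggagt
The Aqp2 window held TGACG, read as CGTCA, 211 bases before the start and AGATAA, read as TTATCT, 202 bases before it. Of 32851 promoter windows of the same length, 17.8% held TGACG and 9.99% held AGATAA. Aqp2 had 1 ETS core, Apela had 3 and Fxyd4 had none, and 64.1% of all windows held at least 1. The other patterns were matched in none of the 7 windows, and no searched pattern was matched for Avpr2 or Scnn1g. These matches are letters in a window and not measured binding.

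No deposited cell type is named principal cell, so the first question was where the genes of that cell lay. Aqp2 was concentrated in cluster 9, which carries the deposited name tDL (thin descending limb), and in cluster 15, which carries the name DCT/CNT (distal convoluted and connecting tubule). Cluster 9 held 55.6% of all Aqp2 counts in the IRI library and 58.5% in the CTRL library, and cluster 15 held 11.3% in IRI and 20.7% in CTRL. Aqp2 averaged 0.164 corrected counts in cluster 9 of the IRI library (420 cells), against 5.33 in cluster 9 of the CTRL library (36 cells). In cluster 15 the Aqp2 mean was 0.452 in the IRI library (31 cells) and 0.395 in the CTRL library (172 cells). The intercalated cells of the collecting duct (CD-IC, cluster 22) had Aqp2 above 0 in 0 of 55 IRI cells (interval 0 to 6.49%) and in 4 of 57 CTRL cells, and 1 IRI cell and 5 CTRL cells had an Aqp2 UMI in the residuals.

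Fxyd4, Apela and Hsd11b2 lay in the same clusters, with different weights. Fxyd4 averaged 0.412 in cluster 9 of the IRI library, against 2.78 in cluster 9 of the CTRL library. Apela averaged 0.121 in IRI cluster 9 and 1.11 in CTRL cluster 9. Hsd11b2 was the member weighted toward cluster 15, which held 42.7% of its IRI counts and 55.1% of its CTRL counts. Scnn1g was scarce, with 11 IRI cells and 15 CTRL cells above 0 in all, and cluster 15 held 50.0% of its IRI counts and 56.2% of its CTRL counts. Cluster 24, which shares the name DCT/CNT with cluster 15, had means of 0 for Fxyd4, Apela and Hsd11b2 in both libraries. Scnn1g was at 0 in its IRI cells but averaged 0.031 in its CTRL cells, against 0.052 in CTRL cells of cluster 15.

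**Figure D1:**
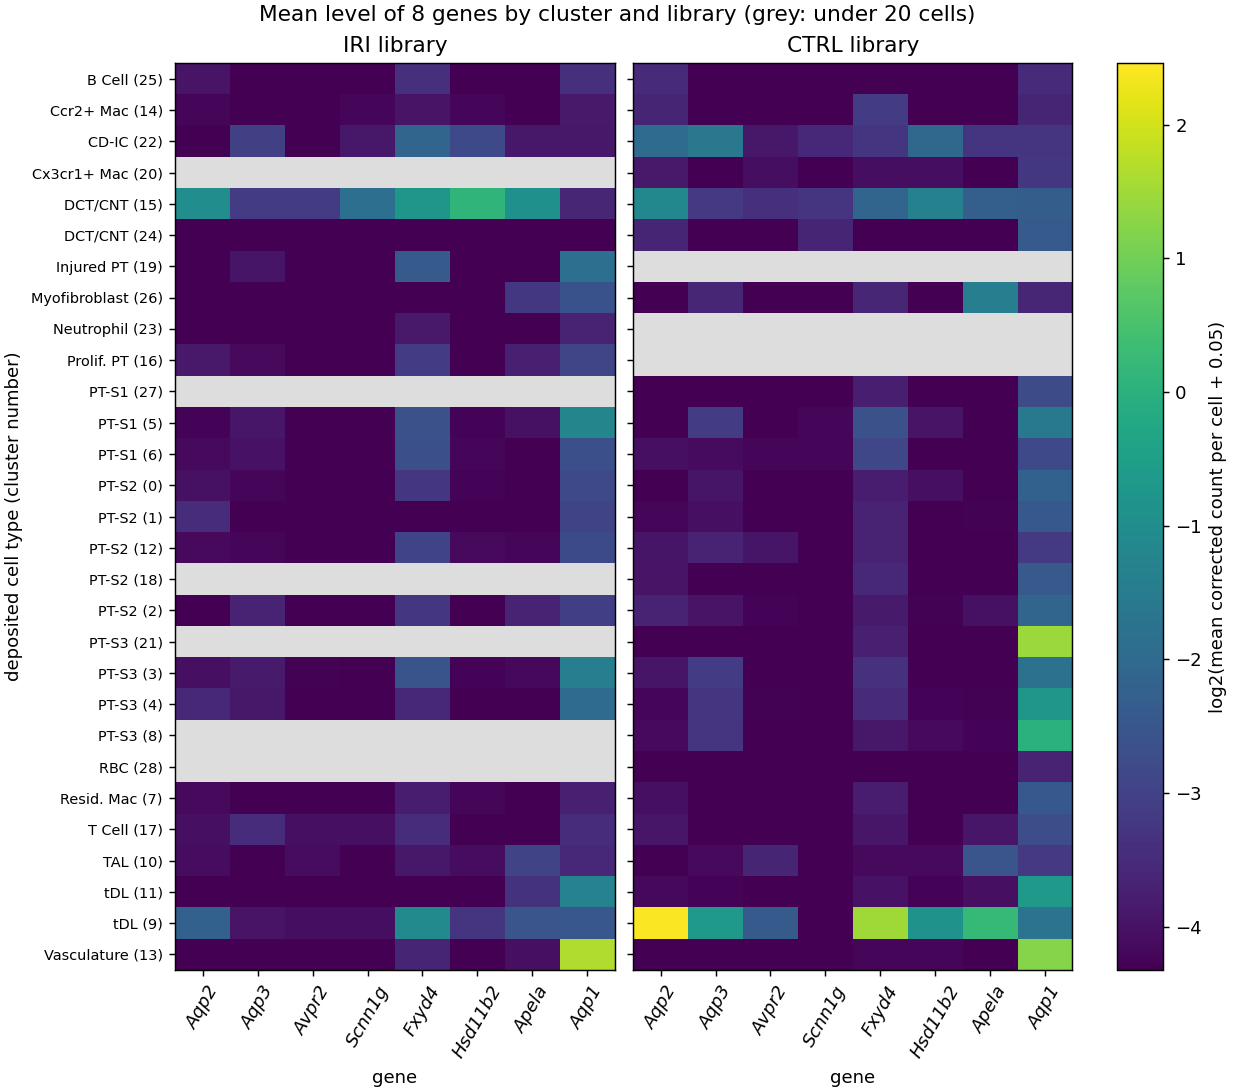
Mean level of the 8 genes (columns) in each deposited cluster with at least 20 cells (rows), IRI library at left and CTRL library at right, as log2 of the mean corrected count plus 0.05, with grey for clusters under 20 cells. Aqp2, Fxyd4, Hsd11b2 and Apela have their highest means in tDL cluster 9 of CTRL and DCT/CNT cluster 15 of IRI, and Aqp1 stands out in Vasculature and in PT-S3, with means of 3.09 in IRI and 2.3 in CTRL vasculature.

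Cells with at least 2 of the 7 genes other than Aqp1 above 0 were then counted. There were 40 such cells of 5170 in the IRI library (0.774%, interval 0.553 to 1.05%) and 58 of 6589 in the CTRL library (0.880%, interval 0.669 to 1.14%). The ratio of the shares was 0.879 with an interval from 0.572 to 1.34, so no difference in share was detectable at this depth. With at least 1 of the 7 genes the shares were 9.15% in IRI and 7.27% in CTRL, a ratio of 1.26 with an interval from 1.11 to 1.43, so the direction depends on the limit, and 16.9% of these IRI cells and 16.1% of these CTRL cells lay in clusters 9 and 15. The count of genes per cell is a range and not a type. Exactly 2 genes were found in 16 IRI and 35 CTRL cells, 3 genes in 12 IRI and 6 CTRL cells, and 4 genes in 9 IRI and 9 CTRL cells. There were 3 IRI and 8 CTRL cells with 5 or more, while 433 IRI cells and 421 CTRL cells had exactly 1. Among T cells, B cells and neutrophils, which should lack all 7, 1 of 272 IRI cells (median 2011 UMIs) and 0 of 88 CTRL cells (median 2237 UMIs) had 2 or more.

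Of these cells, 22 in the IRI library and 14 in the CTRL library lay in tDL cluster 9, and 10 in the IRI library and 26 in the CTRL library lay in DCT/CNT cluster 15. Together the clusters held 80.0% of the IRI cells (interval 64.4 to 91.0%) and 69.0% of the CTRL cells (interval 55.5 to 80.5%). CD-IC held 1 IRI cell and 3 CTRL cells. Among cells with at least 3 of the 7 genes, 24 in IRI and 23 in CTRL, the 2 clusters held 91.7% of the IRI cells and 95.7% of the CTRL cells. With at least 2 genes called by a UMI in the residuals, 81 cells in IRI and 85 in CTRL, they held 48.1% in IRI and 50.6% in CTRL, and among cells with at least 2000 raw UMIs they held 74.2% in IRI and 55.6% in CTRL. The 8 IRI and 18 CTRL cells elsewhere were spread over proximal tubule, leukocyte and other clusters, and had summed means of 15.5 in IRI and 39.7 in CTRL over 15 proximal tubule genes, 7.5 in each library over 16 intercalated cell genes, 6.88 in IRI and 15.3 in CTRL over 15 distal convoluted and connecting tubule genes, and 8.62 in IRI and 0.111 in CTRL over 12 leukocyte genes.

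**Figure D2:**
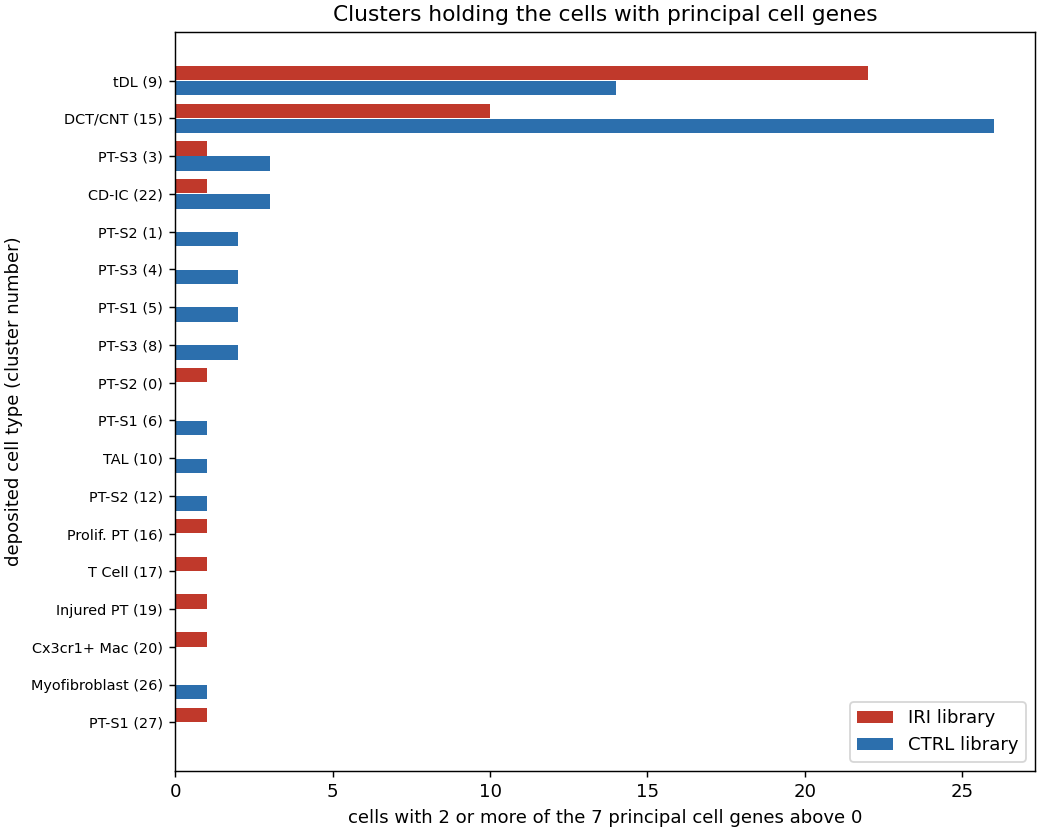
Number of cells with at least 2 of the 7 principal cell genes above 0 (horizontal axis) in each deposited cluster that held any (vertical axis), with the IRI bar above the CTRL bar. Cluster 9 held 22 IRI and 14 CTRL cells, cluster 15 held 10 IRI and 26 CTRL cells, and no other cluster held more than 3 in either library.

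As a share of its library, the group in cluster 9 was 0.426% of IRI cells (interval 0.267 to 0.644%) and 0.212% of CTRL cells (interval 0.116 to 0.356%). The ratio was 2.0 with an interval from 0.980 to 4.23. The group in cluster 15 was 0.193% of IRI cells and 0.395% of CTRL cells, a ratio of 0.490 with an interval from 0.211 to 1.05. Both intervals include 1, but the cluster 9 shares depended on depth. Among cells with at least 1000 raw UMIs, the group in cluster 9 was 20 of 3615 IRI and 5 of 4653 CTRL cells. With at least 2000 raw UMIs it was 14 of 2494 IRI and 0 of 3575 CTRL cells. The group in cluster 15 was 10 IRI and 22 CTRL cells at the first limit, and 9 IRI and 20 CTRL cells at the second. Within the clusters, cells with 2 or more of the genes made up 5.24% of cluster 9 in IRI (420 cells) and 38.9% in CTRL (36 cells). They made up 32.3% of cluster 15 in IRI and 15.1% in CTRL.

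Markers that had no part in choosing the cells were compared between the group in cluster 9 and the rest of the cluster. A list of 18 other principal cell genes summed to 3.41 corrected counts per cell in the IRI group (15 genes above 0) and 2.36 in the CTRL group (11 above 0). In the remaining cells of cluster 9 the same list summed to 0.57 in IRI (398 cells) and 1.32 in CTRL (22 cells). Other cells carried the list at similar levels, with 2.29 in IRI and 2.68 in CTRL cells of CD-IC and 3.0 in IRI and 3.44 in CTRL cells of cluster 24, so its sum does not single out the group. Elf5, an ETS transcription factor of principal cells, was above 0 in 5 of 22 IRI cells and 4 of 14 CTRL cells of the group, and in 0 of 398 IRI and 1 of 22 CTRL cells of the remainder. Aqp4, a basolateral water channel of principal cells, was above 0 in 3 of 22 IRI and 4 of 14 CTRL cells of the group. In the remaining cells its mean was 0 in CTRL but above 0 in IRI. Other genes of the list were absent, with Stc1, Avpr1a and Mcoln3 at 0 in the IRI group. Scnn1a, Npnt, St6gal1, Stc1, Tspan1, Avpr1a and Rasd1 were at 0 in the CTRL group. The member Scnn1g was at 0 in all CTRL cells of cluster 9. Intercalated cell genes were low in the group, with 16 genes summing to 1.36 in IRI and 0.64 in CTRL, against 42.1 in IRI and 36.0 in CTRL cells of CD-IC.

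The remaining cells of cluster 9 held the defining thin limb genes in few cells. The 11 thin limb genes in the table summed to 3.51 in IRI (10 above 0) and 9.0 in CTRL (7 above 0), of which Cryab, a small heat shock protein, gave 2.33 in IRI and 5.23 in CTRL. Bst1 was above 0 in 18 of 398 IRI and 1 of 22 CTRL cells, and Slc14a2, a urea transporter, was above 0 in 1 of 398 IRI and 0 of 22 CTRL cells. Aqp1 was above 0 in 7.62% of all IRI cells and 5.56% of all CTRL cells of the cluster. Its share in T cells, B cells and neutrophils was lower in IRI (3.68%) and higher in CTRL (7.95%). The Aqp1 mean of the cluster was 0.129 in IRI and 0.25 in CTRL, above the 0.037 in IRI and 0.08 in CTRL of those background cells. The remaining IRI cells had 38.6 corrected counts of Spp1 and 27.2 of S100a6, genes raised in injured epithelium. The 22 remaining CTRL cells had 7.27 of Spp1 and 8.46 of S100a6, and in them 8 urothelium genes summed to 6.82, against 0.86 in the remaining IRI cells. Bst1, Slc14a2 and Aqp1 were thus in few cells of cluster 9, while 5 of the 11 thin limb genes were at least 2-fold above the mean of all cells in the remaining cells of either library. The markers left the name tDL unsettled, and the cluster is called by its number here.

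In cluster 15 the cells with 2 or more of the 7 genes carried connecting tubule genes as well. Calb1, a calcium buffer, averaged 7.20 in the IRI group and 14.1 in the CTRL group, and S100g, another calcium-binding protein, averaged 80.6 in IRI and 245.9 in CTRL. Slc12a3, the thiazide-sensitive cotransporter of the distal convoluted tubule, was at 0 in all 10 IRI and 26 CTRL cells of the group, but was above 0 in 3 of 21 IRI and 17 of 146 CTRL cells of the rest of the cluster. Aqp4 was at 0 in every cell of cluster 15 in both libraries. The 18 other principal cell genes summed to 5.70 in the IRI group and 3.73 in the CTRL group, against 1.52 in IRI and 1.23 in CTRL cells of the rest. The group was deeper than the rest, with median raw UMIs of 4030.5 against 964 in IRI and 2952 against 1073.5 in CTRL. The part that depth plays was not tested. Cells of cluster 24 reached 3.0 in IRI and 3.44 in CTRL on the same list.

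The members were found together in cells to different degrees. Of 51 IRI and 84 CTRL cells with Aqp2 above 0, 37.3% of IRI and 22.6% of CTRL cells also had Fxyd4, and 21.6% of IRI and 27.4% of CTRL cells also had Hsd11b2. The intercalated cell gene Atp6v1g3 was above 0 in 1.96% of IRI and 7.14% of CTRL cells with Aqp2, and in 3.66% of all IRI and 2.81% of all CTRL cells. Calb1 was above 0 in 27.8% of IRI and 54.0% of CTRL cells with Hsd11b2, while 1.76% of all IRI cells and 6.46% of all CTRL cells had Calb1. Of the cells with Scnn1g, 3 of 11 in IRI and 13 of 15 in CTRL had Calb1.

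The level of each gene in these cells was next compared between libraries, in cells chosen by at least 2 of the other 6 genes so that the gene itself had no part in the choice. In cluster 9, Aqp2 had a mean of 2.32 and a median of 1 (range 0 to 21) in 19 IRI cells, against a mean of 14.7 and a median of 16 (range 3 to 27) in 11 CTRL cells. All 11 CTRL cells and 10 of the 19 IRI cells had Aqp2 above 0, and the log2 ratio was −2.64. The ranges overlapped through a single IRI cell with 21 counts and IRI cells with 3 to 5 counts. In cluster 15, Aqp2 averaged 0.778 in 9 IRI cells and 2.12 in 16 CTRL cells, a log2 ratio of −1.39.

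Depth differed between these groups and touches the Aqp2 values. The cells of cluster 9 with 2 or more genes had a median of 2618 raw UMIs in IRI and 779.5 in CTRL, and a corrected count in a shallow cell is scaled up by the authors' depth correction. Among cells with 1000 to 2000 raw UMIs, Aqp2 had corrected counts of 0, 0, 1, 1, 3 and 4 in the 6 IRI cells, against 3, 23, 23 and 27 in the 4 CTRL cells (median 1329 raw UMIs in IRI and 1170 in CTRL). The log2 ratio in these cells was −3.62. These few cells overlapped at 3 to 4 counts. Below 1000 raw UMIs, the IRI cells of the group had Aqp2 counts of 5 (433 raw UMIs) and 15 (530 raw UMIs). The CTRL cells of the group at that depth ranged from 2 to 20. Those IRI cells had only Aqp2 and Fxyd4 above 0, so Aqp2 had a part in choosing them. The lower Aqp2 of IRI was thus seen between 1000 and 2000 raw UMIs. Below 1000 raw UMIs no IRI cell was chosen by the other genes, so the libraries could not be compared there.

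Fxyd4 was measured in the same way. In cluster 9 its mean was 7.47 in 17 IRI cells and 7.67 in 12 CTRL cells, a log2 ratio of −0.04. Among cells with 1000 to 2000 raw UMIs it averaged 4.4 in 5 IRI cells and 8.75 in 4 CTRL cells, a log2 ratio of −0.98. In cluster 15 it averaged 1.88 in 8 IRI cells and 0.652 in 23 CTRL cells, a log2 ratio of 1.46. Aqp3 was above 0 in 4 of 22 IRI cells and 6 of 14 CTRL cells of cluster 9, with a log2 ratio of −2.45. All 6 of those CTRL cells had under 1000 raw UMIs, and between 1000 and 2000 raw UMIs Aqp3 was above 0 in 2 of 6 IRI cells and 0 of 5 CTRL cells.

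Among members tied to hormone action, over all clusters Hsd11b2 averaged 1.38 in 37 IRI and 1.33 in 46 CTRL cells chosen by the other genes, a log2 ratio of 0.05. Its log2 ratio was −0.67 in cluster 9 and 0.58 in cluster 15, where 1 IRI cell had 20 counts, and over cells with 1000 to 2000 raw UMIs it was 1.99 (7 cells in each library). Apela averaged 0.588 in 34 IRI and 0.980 in 50 CTRL cells, a log2 ratio of −0.69, and −1.51 within cluster 9. Avpr2 averaged 0.125 in IRI and 0.179 in CTRL cells, and Scnn1g averaged 0.237 in IRI and 0.109 in CTRL cells. For Avpr2 and Scnn1g the counts were too few to order the libraries.

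**Figure D3:**
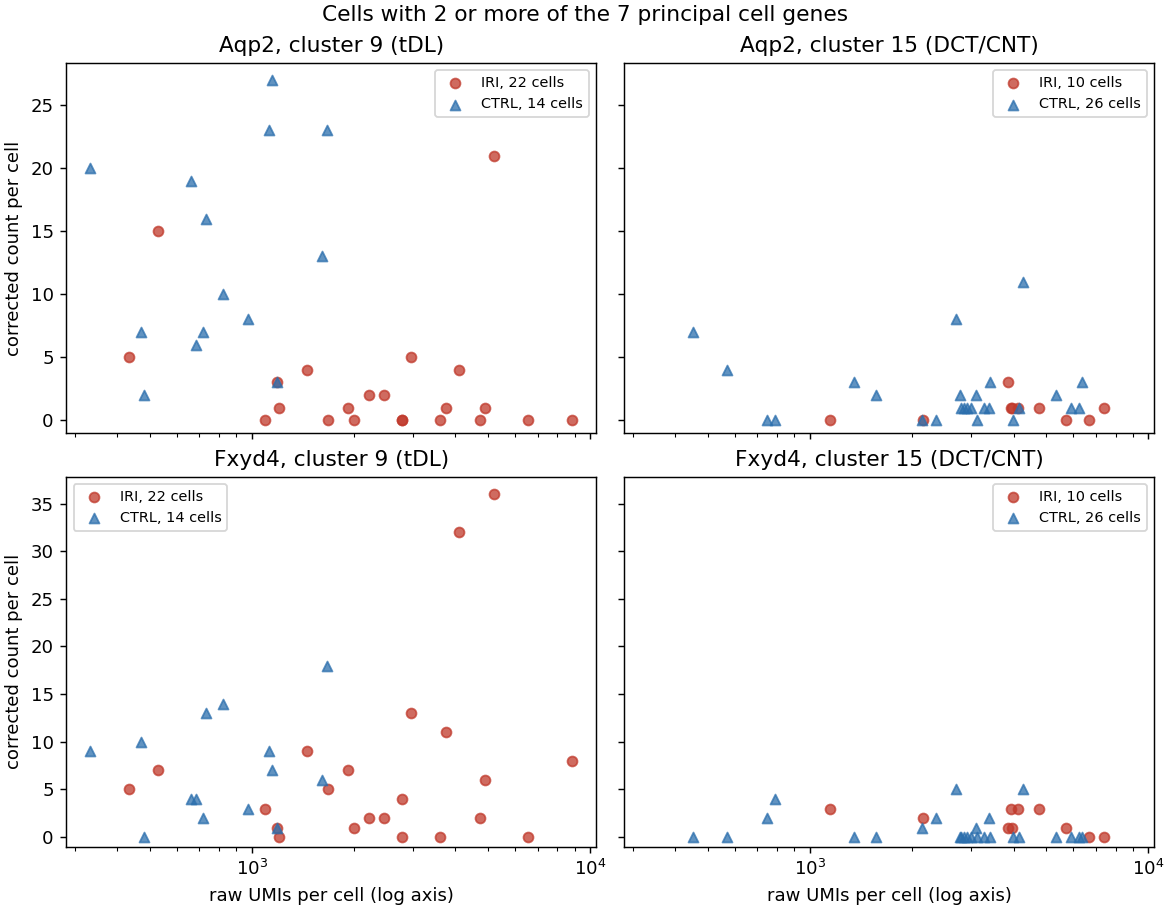
Corrected count of Aqp2 (upper panels) and Fxyd4 (lower panels) in each cell with at least 2 of the 7 genes, against its raw UMIs on a log axis, for cluster 9 at left and cluster 15 at right, with circles for IRI and triangles for CTRL. In cluster 9 most IRI cells lie at greater depth and lower Aqp2 than the CTRL cells (means 2.96 in IRI and 13.1 in CTRL), while Fxyd4 overlaps (means 7.0 in IRI and 7.14 in CTRL).

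Other genes in the group of cluster 9 differed between libraries, and these were named after their values were seen. Lcn2, a secreted protein raised in injured distal tubule, averaged 12.2 in the IRI group (17 of 22 cells above 0) and was at 0 in all 14 CTRL cells. Sprr2f, a cornified envelope protein, averaged 9.32 in the IRI group (9 of 22 cells) and was at 0 in all 14 CTRL cells. In the group of cluster 15 Lcn2 was above 0 in 1 of 10 IRI and 0 of 26 CTRL cells, and Sprr2f in 1 of 10 IRI and 0 of 26 CTRL cells. The part that free RNA of other injured cells plays in these values was not tested, and the remaining IRI cells of cluster 9 had Lcn2 above 0 in 140 of 398 cells.

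By deposited cell type, 13 types had at least 20 cells in each library and gave 38 ratios for the members. Of these, 2 were at least 2-fold higher in IRI and 7 at least 2-fold lower, while of 75288 ratios over all genes in the same types 2.44% were at least 2-fold higher and 3.44% at least 2-fold lower. In tDL, 2 of 6 measured members were lower and none higher, against 6.49% lower and 4.54% higher among all genes. In DCT/CNT, 1 of 8 was lower and none higher, against 2.52% lower and 2.29% higher. Aqp2 averaged 0.157 in IRI and 0.454 in CTRL tDL cells (log2 ratio −1.29), and Aqp1 averaged 0.139 in IRI and 0.543 in CTRL tDL cells (−1.65). The makeup of this type differed, with cluster 9 giving 95.5% of its IRI cells and 8.43% of its CTRL cells. With only cells of at least 2000 raw UMIs the Aqp2 ratio in tDL turned to 2.06, and cluster 9 then held no CTRL cell with 2 or more of the genes.

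Fxyd4, Hsd11b2 and Apela had opposite signs in clusters 9 and 15, a difference that was not tested. In cluster 9, Aqp2 (−4.65), Aqp3 (−3.3), Apela (−2.76), Fxyd4 (−2.61) and Hsd11b2 (−2.42) were at least 2-fold lower in IRI, 5 of 6 measured members, against 10.5% of all genes lower. Of the cells of cluster 9, 398 of 420 in IRI and 22 of 36 in CTRL had fewer than 2 of the genes. In cluster 15, Hsd11b2 (1.46), Scnn1g (1.43), Fxyd4 (1.38) and Apela (1.37) were at least 2-fold higher in IRI, 4 of 8 measured members, against 8.56% of all genes higher. A single IRI cell held 20 of the 32 IRI counts of Hsd11b2 and 4 of the 7 of Scnn1g in that cluster. Hsd11b2 was above 0 there in 19.4% of IRI and 15.7% of CTRL cells. Aqp1 (−1.29) was the member lower there, against 2.85% of all genes. The median depth of cluster 15 was 3579 raw UMIs in IRI and 1261.5 in CTRL. Aqp2 and Aqp3 had log2 ratios of 0.17 and 0.08 there.

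Fxyd4 was also found outside these clusters, which held 35.1% of its IRI counts and 40.6% of its CTRL counts. In PT-S3, the last proximal tubule segment, it was above 0 in 9.37% of 790 IRI cells and 2.98% of 1442 CTRL cells, with means of 0.114 in IRI and 0.0312 in CTRL (log2 ratio 1.01). Cluster 3 gave 92.0% of the IRI cells and 8.81% of the CTRL cells of PT-S3, and within clusters present in both libraries the log2 ratio was 0.82 in cluster 3 and −0.06 in cluster 4. In PT-S1 it was above 0 in 9.91% of IRI and 8.33% of CTRL cells, and in the type named Injured PT in 13.3% of 135 IRI cells. T cells, B cells and neutrophils had Fxyd4 above 0 in 3.31% of IRI and 1.14% of CTRL cells, and the PT-S1 and IRI PT-S3 shares were above this background. Median depth in PT-S3 was 2338.5 raw UMIs in IRI and 4507.5 in CTRL, and in PT-S1 it was 4716 in IRI and 4953.5 in CTRL. In CD-IC Fxyd4 averaged 0.182 in IRI and 0.0526 in CTRL cells (1.18), against 5.62% of all genes at least 2-fold higher there. This ratio rests on 10 counts in 55 IRI cells and 3 counts in 57 CTRL cells. The shares above 0 were 9.09% in IRI (interval 3.02 to 19.95%) and 1.75% in CTRL (interval 0.044 to 9.39%).

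Aqp3 was the other member with many cells in the proximal tubule. PT-S3 held 28.1% of its IRI counts and 40.1% of its CTRL counts, with 2.03% of IRI and 4.58% of CTRL cells above 0. CD-IC had the highest level by type, above 0 in 4 of 55 IRI cells and 14 of 57 CTRL cells, with means of 0.0727 in IRI and 0.281 in CTRL (log2 ratio −1.43). Median depth in CD-IC was 2923 raw UMIs in IRI and 2928 in CTRL. T cells, B cells and neutrophils had Aqp3 above 0 in 1.10% of IRI and 0 of 88 CTRL cells.

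Apela and Avpr2 were found in thick ascending limb (TAL) too. Apela was above 0 in 8 of 112 IRI and 32 of 324 CTRL TAL cells, with means of 0.0804 in IRI and 0.123 in CTRL (log2 ratio −0.41). Of all cells with Apela, 36.2% in IRI and 36.1% in CTRL had Umod, the TAL protein uromodulin, while 8.82% of all IRI cells and 10.9% of all CTRL cells had it. Avpr2 was above 0 in 1 of 112 IRI and 10 of 324 CTRL TAL cells, which held 33.3% of its CTRL counts, and 22.2% of IRI and 37.0% of CTRL cells with Avpr2 had Umod. The highest Apela mean by type was in CTRL myofibroblasts, 8 of 31 cells above 0 and a mean of 0.323, against 1 of 35 IRI cells and a mean of 0.0571. T cells, B cells and neutrophils had Apela above 0 in 0 of 272 IRI and 1 of 88 CTRL cells.

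Aqp1 followed other cells than the rest of the list. By type its mean was highest in vasculature, 3.09 in IRI (96 cells) and 2.3 in CTRL (222 cells), and next in PT-S3, 0.319 in IRI and 0.827 in CTRL. Within vasculature it was confined to few cells, above 0 in 25.0% of IRI cells (interval 16.7 to 34.9%) and 22.1% of CTRL cells (interval 16.8 to 28.1%). Endothelial cells with Slc14a1, the urea transporter of descending vasa recta, had Aqp1 above 0 in 12 of 13 IRI cells and 7 of 7 CTRL cells, with means of 16.7 in IRI and 20.9 in CTRL. Endothelial cells without Slc14a1 averaged 0.964 in IRI and 1.70 in CTRL.

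In the proximal tubule, the clusters that hold Aqp1 differed between the libraries, and so did its level within some of them. PT-S3 as a whole had a log2 ratio of −1.25, with 24.1% of IRI cells and 49.2% of CTRL cells above 0. Cluster 21, with 1 IRI and 118 CTRL cells, averaged 2.67 in CTRL with 94.1% of cells above 0, and cluster 8, with 4 IRI and 455 CTRL cells, averaged 0.956 in CTRL. These clusters were deep, with medians of 10278 and 8192 raw UMIs in CTRL. Between clusters present in both libraries, Aqp1 averaged 0.325 in IRI and 0.236 in CTRL cells of cluster 3 (log2 ratio 0.39), and 0.207 in IRI and 0.555 in CTRL cells of cluster 4 (−1.24). In PT-S2 the log2 ratio was −0.52, and clusters 0, 1 and 2 of that type had −0.61, −0.50 and −0.95. Cluster 12 of that type, with 292 IRI and 66 CTRL cells, went the other way (0.365). Aqp1 in PT-S1 averaged 0.244 in IRI and 0.183 in CTRL (0.33).

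Of the cells named tDL, those of cluster 11 had Aqp1 above 0 in 2 of 20 IRI cells and 32.0% of 391 CTRL cells. Cluster 11 also carried proximal tubule genes, 15 of which summed to 153.2 in IRI and 87.5 in CTRL. The Aqp1 ratios of −1.59 in DCT/CNT and −1.27 in resident macrophages rest on shares of 1.59% in IRI and 11.02% in CTRL, and of 1.31% in IRI and 7.45% in CTRL. The CTRL shares lie within the interval of CTRL T cells, B cells and neutrophils (7.95%, interval 3.26 to 15.7%). The CTRL means, 0.148 in DCT/CNT and 0.133 in resident macrophages, were above the 0.08 of those background cells. The part that background plays in these ratios was not tested.

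**Figure D4:**
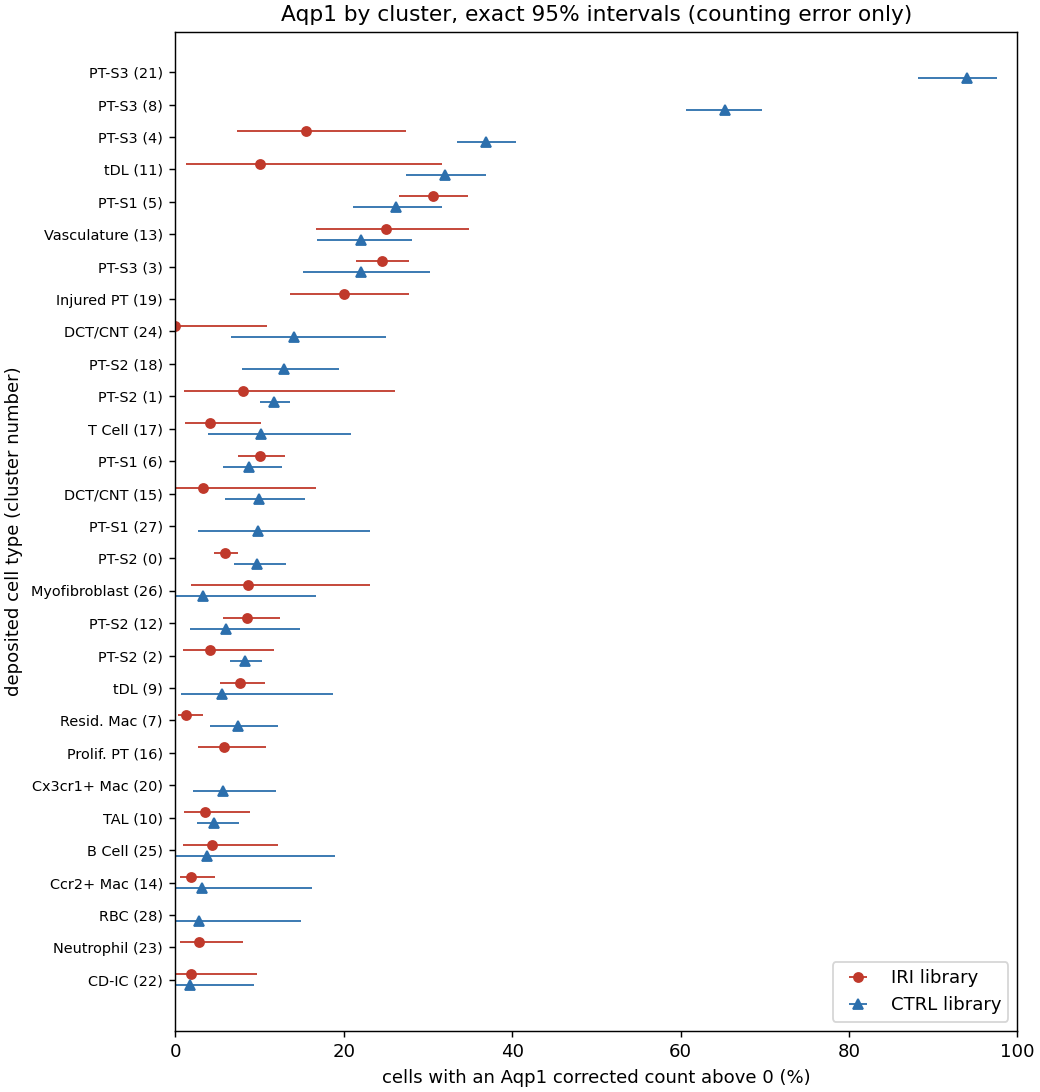
Share of cells with an Aqp1 corrected count above 0 (horizontal axis, percent) in each deposited cluster with at least 20 cells in the library, with exact 95% intervals for counting error, circles for IRI above triangles for CTRL. CTRL clusters 21 (94.1%) and 8 (65.3%) have no IRI counterpart of at least 20 cells, and vasculature has 25.0% in IRI and 22.1% in CTRL.

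Over both libraries without regard to type, the members moved less. Summed corrected counts were 1062 in IRI and 2568 in CTRL for Aqp1, 124 in IRI and 328 in CTRL for Aqp2, and 541 in IRI and 323 in CTRL for Fxyd4. With 0.05 added, none of the 8 members passed 2-fold in its mean over all cells, against 1.63% of all genes. The log2 ratios were −0.78 for Aqp1, −0.43 for Aqp2, −0.33 for Aqp3 and 0.64 for Fxyd4, and the other 4 lay between −0.08 and 0.01. Members other than Aqp1 and Fxyd4 had means below 0.05 in both libraries, which pulls their ratios toward 0. Before the addition, Aqp2 (0.0240 in IRI, 0.0498 in CTRL), Aqp3 (0.0110, 0.0269), Avpr2 (0.00174, 0.00455) and Fxyd4 (0.105, 0.0490) were more than 2-fold apart. In the mean over all cells, fewer cells of a type and less RNA per cell cannot be told apart.

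The wider pathways were described in tDL and DCT/CNT, which each held 36 of the cells with principal cell genes. Among vasopressin receptor signalling genes, 0 of 21 measured in tDL and 0 of 18 in DCT/CNT were 2-fold apart, with median log2 ratios of 0.13 in tDL and 0.05 in DCT/CNT, against medians of 0.07 in tDL and −0.04 in DCT/CNT over all genes. The CTRL cells of tDL were 91.6% cluster 11, which held no cell with 2 or more of the principal cell genes. In cluster 9 alone, 4 of 15 measured vasopressin signalling genes were at least 2-fold lower in IRI, against 10.5% of all genes. In cluster 15 alone 1 of 10 was higher, against 8.56% of all genes, and over the cells with 2 or more principal cell genes 1 of 10 was lower, against 8.13% of all genes. Among aldosterone response genes, 2 of 17 in tDL were lower, and 1 of 18 in DCT/CNT was higher and 2 lower, against 6.49% of all genes lower in tDL, and 2.29% higher and 2.52% lower in DCT/CNT. In tDL these were Prss8, a channel-activating protease (−1.11), and the glucocorticoid-induced Tsc22d3 (−1.05). Within cluster 9 Prss8 had the opposite sign (0.92), and Tsc22d3 had −2.64. In DCT/CNT they were Scnn1b, the beta subunit of the sodium channel (1.29), the kinase Sgk1 (−1.03) and the deubiquitinase Usp2 (−1.02). In cluster 15 alone 4 of 14 aldosterone response genes were higher and 1 lower, against 8.56% of all genes higher and 2.85% lower. In cluster 9 alone 4 of 15 were lower and 1 higher, against 10.5% of all genes lower and 4.11% higher. The members Scnn1g and Hsd11b2 are among those higher in cluster 15, and Hsd11b2 is among those lower in cluster 9, so these counts partly repeat the member ratios. In cluster 15 a single IRI cell held most of the IRI counts of both members.

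Across the other lists, the aquaporin family had 2 of 6 measured genes lower in tDL (Aqp1 and Aqp2) and 1 of 3 lower in DCT/CNT (Aqp1), against the same 6.49% and 2.52% of all genes, and with the makeup of tDL given above. Fxyd5, an FXYD protein, was at least 2-fold higher in tDL (1.15) among 7 measured FXYD and sodium pump genes, against 4.54% of all genes higher. Within cluster 9 Fxyd5 was at 0 in CTRL cells, so it had no ratio there. Slc5a3, the myo-inositol transporter, was higher in tDL (1.36) among 7 measured tonicity response genes, against the same share of all genes. Within cluster 9 its log2 ratio was −0.15. Of the apelin receptor and its ligands only Apela was measured, with log2 ratios of 0.14 in tDL and 0.81 in DCT/CNT.

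Across 49 groups of cluster by library, most members resembled Aqp2 in their levels, and Aqp1 did not. Aqp2 had Pearson r of 0.90 with Avpr2, 0.85 with Hsd11b2 and 0.78 with Fxyd4, and −0.06 with Aqp1. Scnn1g was less like the others, with r of 0.48 with Aqp2, 0.33 with Aqp3 and 0.40 with Fxyd4. Of 8792 other genes, those most like Aqp2 were S100a14 (r = 0.90), Kif26b (0.89) and Elf5 (0.86). S100a14 was also among the 3 most like Avpr2, Fxyd4 and Apela, and Kif26b among those most like Avpr2 and Fxyd4. Ehf was among those most like Avpr2 (0.83) and Apela (0.87), with Sprr1a (0.78) the third gene for Fxyd4 and Fam174b (0.85) the second for Apela.

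The genes most like Hsd11b2 were the transcription factor gene Gata2 (0.88), the prostaglandin synthase gene Ptges (0.87) and the potassium channel subunit gene Kcne1 (0.86). Kcne1 (0.88), Klk1b24 (0.84) and Gm7325 (0.83) were most like Scnn1g. Aqp3 was most like Itga2b (0.79), Plet1 (0.76) and Cbr2 (0.71), and Aqp1 was most like Pcdh17 (0.88), Hyal2 (0.73) and Clic4 (0.72). These correlations are across clusters that share libraries and depth, and describe likeness of pattern and nothing more. The pairs of a member and its most similar genes were not kept with Spearman correlation in place of Pearson r.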

How the data were processed

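The submitters' processing notes name Cell Ranger 3.0.0, Seurat 3.2 and the mm9 build. The main table as deposited holds a score, namely depth-corrected counts of the SCTransform kind, whole numbers summing to between 1468 and 3212 per cell, whereas cells had 271 to 24680 raw UMIs. The deposited residuals, a score as well, cover 3000 genes, and cells with at least 1 UMI of a gene were read from them. Raw count tables were not analysed here, so the plan for counts was replaced by means of corrected counts. Doublets were not called and cells were not thinned.

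The authors' annotation gives library, cluster, cell type and raw UMIs per cell. It was written without separators, and 3615 of 11759 cells allowed more than 1 split. Raw UMIs from the split kept had a Spearman rho of −0.998 with Top2a residuals over 11626 cells. Levels were compared where both libraries had 20 or more cells of a type, for genes with at least 10 summed corrected counts, with 0.05 added to each mean and 2-fold as the limit. Shares have Clopper-Pearson 95% intervals. The named genes are the 8 members, the 3 genes most like each by Pearson r with a mean of at least 0.1 in a group, and list members past 2-fold in tDL or DCT/CNT. Marker list genes are named where their level is given, and any other gene was named after its values were seen. Of the pathway lists, 1 gene past the limit in tDL is not reported here. The members and lists were chosen with earlier results of these data known. The ratio, the interval and the UMI call were tested on simulated data. Python 3.11.15 with scipy 1.17.1 and pandas 2.3.3 was used. Promoters come from RefSeq GRCm38.p6, and no coordinate was taken from the mm9 files.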

Additional observations from a re-analysis of the deposited data

Results flagged for a closer look

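Fxyd4, Hsd11b2 and Apela differed in direction between cell types or clusters under the same contrast of IRI over CTRL, at 2-fold or more each way. The difference itself was not tested, since each group is 1 library. Fxyd4 had log2 ratios of 1.18 in CD-IC (cluster 22, 1.18), 1.01 in PT-S3 (0.82 in cluster 3 and −0.06 in cluster 4 of that type) and 1.38 in cluster 15, but −2.61 in cluster 9. The CD-IC value rests on 10 IRI and 3 CTRL counts. Hsd11b2 had 1.46 in cluster 15, where a single IRI cell held 20 of the 32 IRI counts, and −2.42 in cluster 9. Apela had 1.37 in cluster 15, −2.76 in cluster 9 and −1.80 in myofibroblasts (cluster 26, −1.80). In cluster 9, 398 of 420 IRI cells and 22 of 36 CTRL cells had fewer than 2 of the principal cell genes, and in the cells with 2 or more, Fxyd4 averaged 7.0 in IRI and 7.14 in CTRL.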

How the results depend on the processing

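No paired analysis was possible because each group is 1 library and no test was made. Of 36 alternatives for the main results, 24 kept the value within its limits. The ratio of shares of cells with principal cell genes stayed within its counting interval under all alternatives run. The percent of these cells in clusters 9 and 15 was 91.7% in IRI and 95.7% in CTRL with at least 3 genes, and 48.1% in IRI and 50.6% in CTRL with UMI calls from residuals, which were added after seeing the data. Of the member ratios over types, 0 were 2-fold higher and 0 lower with 0.5 added, 11 were lower with 0.01 added, and 4 of 25 were lower in cells of at least 2000 raw UMIs. Of the 24 most similar gene pairs, 0 were shared with Spearman correlation and 5 with cell types in place of clusters. Of the pathway genes, 7 in tDL and 4 in DCT/CNT were 2-fold apart, and 0 and 0 with 0.5 added. Of 268 alternatives for single values, 250 kept their side, 17 moved, and 1 reversed: Aqp2 in tDL was 2.06 in cells of at least 2000 raw UMIs, where cluster 9 keeps few CTRL cells. Scaling by trimmed means shifted log2 ratios by −0.47 to 0.21 per type. Few cells with counts limit Avpr2 and Scnn1g, and corrected counts of shallow cells limit Aqp2 and Aqp3 in cluster 9.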
